A study of Mus musculus with 4 samples.

Results

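Cells from the injured left hindlimb of Ddr2 slie/slie mice were compared with cells from the uninjured right hindlimb of the same animals, 1 week after injury. The comparison covered 246 cells of the injured and 184 cells of the uninjured library, 430 of the 1241 cells kept in the 4 libraries of the series. Members were chosen by label alone: all barcodes of both slie/slie libraries with 200 or more detected genes and at most 20% of UMIs (unique molecular identifiers, which count captured transcripts) from mitochondrial genes. The slie allele is a spontaneous deletion in Ddr2, the gene of a receptor tyrosine kinase that binds fibrillar collagen, and these mice were homozygous for it. The controls carried no further genotype label than littermate control. All mice of the study, 2 slie/slie and 2 littermate controls, were burned on the back over 30% of the body surface and had the left Achilles tendon cut in the same operation. The right limb was therefore an unoperated limb of a burned animal, not of a naive one. Tissue from the tendon and its surroundings behind the tibia was taken on day 7, pooled over both animals of a genotype for each limb, digested with collagenase and dispase, and sequenced as 3′ single-cell libraries. Age and sex are not stated in the sources used here.

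Each limb was thus 1 library of 2 pooled mice, and the spread between animals could not be measured. UMIs of each gene were summed over the kept cells of a library and expressed as CPM (counts per 1e6 summed UMIs). Every interval below is a 95% interval that covers counting error only, and no p-value is given. A gene was measured with 20 or more UMIs over both libraries. It was called higher or lower in the injured limb when the ratio of CPM was at least 2-fold and its interval excluded 1. Where 1 library had 0 UMIs, the fold is a bound computed against 3 UMIs in that library. In such sums, fewer cells of a type and less RNA of a gene per cell cannot be told apart, so the class of cells that held the UMIs is given beside the main differences.

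A burn combined with tendon transection is used in mice to induce heterotopic ossification, the formation of bone in soft tissue, which passes through inflammation, fibroproliferation and cartilage before bone. Neutrophils and monocytes enter a wound from the blood, resting fibroblasts take on a matrix-producing state, and vessels, nerve and muscle are disrupted at the site. DDR2 is one of the receptors through which mesenchymal cells sense fibrillar collagen.

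The libraries differed in depth and in their barcodes. The injured library kept 1010828 of 1493147 UMIs in 246 of 375 barcodes and the uninjured library 1097002 of 1540053 UMIs in 184 of 289. Median depth was 1218 UMIs per injured and 4841 per uninjured cell. The 3 deepest cells held 20.4% of the injured and 8.69% of the uninjured UMIs. Cells with under 0.5% mitochondrial UMIs made up 152 of the injured (61.8%) and 22 of the uninjured cells (11.96%). Hemoglobin genes held 92.5% and 81.5% of the UMIs left out by the filter. No barcode occurred in both slie/slie libraries.

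The Ddr2 transcript itself matched the genotype label in the injured limb. The slie/slie kept cells held 0 injured and 2 uninjured UMIs of Ddr2 (ENSMUSG00000026674, chromosome 1, 169972307 to 170110762, minus strand, mm10), the latter within a single cell of the pericyte or smooth muscle-like class. The kept cells of the littermate controls held 115 Ddr2 UMIs in the injured and 3 in the uninjured limb. With both slie/slie values at or under 3 UMIs, no fold was formed. Only 3′ tags were read, and which exons these reads covered is not stated in the labels.

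The injured limb was higher for genes of neutrophils, keratinocytes, cell division and healing matrix, and lower for genes of resting fibroblasts, vessel lining, myelin, muscle fibres and fat. Of 9221 measured genes, 934 were higher (10.1%) and 1104 lower (12%), and the median log2 ratio over all measured genes was -0.02. These shares are the background against which the counts below are read. The class that held the most UMIs of a higher gene in the injured library was mesenchymal-like for 365 genes, neutrophil-like for 201, keratinocyte-like for 198 and monocyte or macrophage-like for 87. Lower genes lay in the uninjured library mainly in mesenchymal-like (643 genes), endothelial-like (234) and Schwann or glial-like cells (126). A single cell held at least 50% of the injured UMIs of 169 higher genes (18.1%), and of the uninjured UMIs of 15 lower genes.

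The mixture of cells differed between the limbs. Cells were clustered over both libraries and named from marker genes, so the share of a class in its own markers follows in part from the naming. Neutrophil-like cells made up 16.7% of the injured (41 cells, 12.2 to 21.9) and 1.63% of the uninjured library (3 cells, 0.338 to 4.69), and keratinocyte-like cells 10.6% (26 cells) and 1.63% (3 cells). Endothelial-like cells went from 22.8% of the uninjured (42 cells) to 2.85% of the injured library (7 cells), and Schwann or glial-like cells from 34 cells to 1. That last cluster also carried 9 endothelial markers, and it held 12 to 16 uninjured cells in 6 other ways of grouping. Monocyte or macrophage-like cells numbered 38 and 9, pericyte or smooth muscle-like cells 21 and 20, and mesenchymal-like cells 36 and 60 in the injured and uninjured library. Shares of summed UMIs differed from shares of cells: endothelial-like cells held 10.7% of the injured and 18.1% of the uninjured UMIs. Schwann or glial-like cells held 0.727% and 16.3%, neutrophil-like cells 7.41% and 0.557%, and keratinocyte-like cells 14.3% and 0.663%. Monocyte or macrophage-like cells held 9.85% and 3.97%, pericyte or smooth muscle-like cells 10.9% and 11.0%, and mesenchymal-like cells 32.3% and 47.8%.

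**Figure D1:**
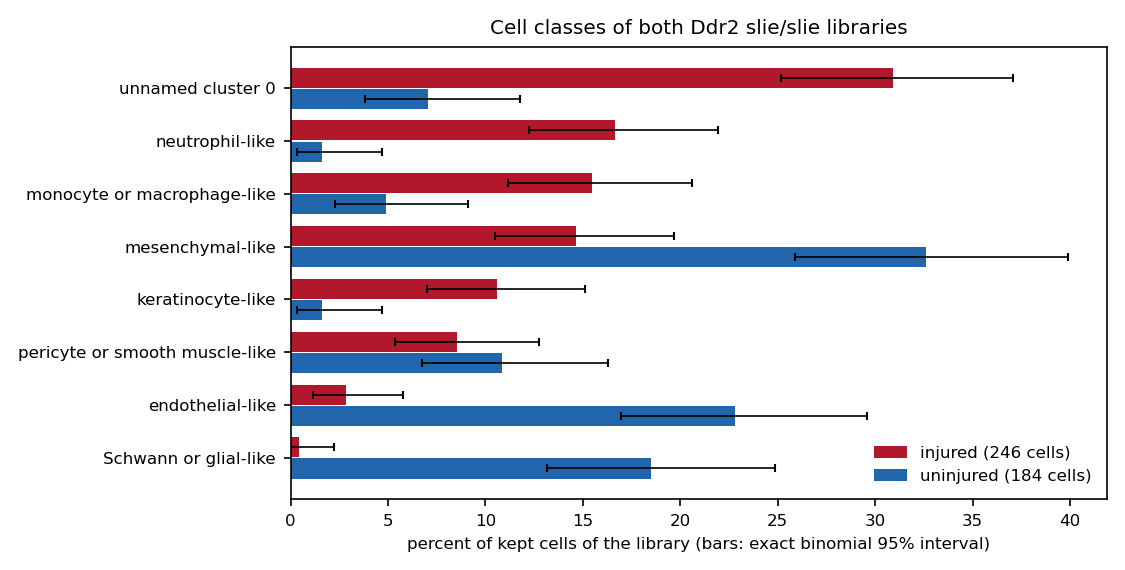
Share of kept cells in each class of the injured (246 cells) and uninjured (184 cells) Ddr2 slie/slie library, in percent, with exact binomial 95% intervals that cover counting error only. Neutrophil-like and keratinocyte-like shares were larger in the injured library, and endothelial-like and Schwann or glial-like shares in the uninjured one.

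A cluster of 76 injured and 13 uninjured cells stayed unnamed. It was shallow, with a median of 649 UMIs in the injured library, and hemoglobin genes held 36.5% of its UMIs. Its leading genes were the hemoglobin genes together with H19, Cthrc1 and Mest, which mesenchymal-like cells of the injured limb also held. When each cell was classed by its highest marker level in place of clustering, 101 injured and 62 uninjured cells were mesenchymal-like. The size of the injured mesenchymal-like class therefore depends on the grouping.

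Genes of neutrophils, the first leukocytes to enter a wound, were higher in the injured limb as a group. Of 15 measured neutrophil granule and receptor genes, 14 were higher and 0 lower (median log2 ratio 3.13). S100a9, an alarmin subunit that neutrophils hold in large amounts, had 6006 UMIs (5942 CPM) in the injured and 742 (676 CPM) in the uninjured library, 8.78-fold higher, interval 8.14 to 9.49, and its partner S100a8 was 5.30-fold higher, interval 4.90 to 5.75. Receptor genes followed, with 89 and 5 UMIs of Cxcr2, the receptor for neutrophil-attracting CXC chemokines, and 105 and 1 UMI of Trem1, an amplifier of inflammatory signalling. Cxcr2 was 19.3-fold higher and Trem1 114-fold higher, interval 20.01 to 4543. Neutrophil-like cells (41 injured and 3 uninjured) held 95.8% of the injured S100a9 and 96.6% of the injured Cxcr2 UMIs. Both genes are among the markers that named this class, so these shares follow in part from the naming. Genes of all leukocytes were higher for 13 of 13 measured members (median log2 ratio 2.17), led in level by Srgn, a granule proteoglycan core protein, with 1472 and 267 UMIs (5.98-fold higher, interval 5.25 to 6.84).

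Chemokines that attract neutrophils were among the highest ratios of the whole comparison. Cxcl2 (ENSMUSG00000058427, chromosome 5, 90903871 to 90905938, plus strand) had 3878 UMIs (3836 CPM) in the injured and 20 (18.2 CPM) in the uninjured library, 210.4-fold higher, interval 136 to 345. Its UMIs lay in 45 injured cells, and neutrophil-like cells held 99.1% of them. Cxcl3 lay in the same class (96.3%) with 109 and 1 UMI (118-fold higher, interval 20.8 to 4715), whereas Cxcl5 was mesenchymal-like (95.96%) with 272 and 5 UMIs (59.04-fold higher). Cxcl5 had 270 and 2 UMIs without the 3 deepest cells of each library. Cxcl1 was also mostly mesenchymal-like (71.2% of injured UMIs) and differed least of the 4, with 104 and 56 UMIs (2.02-fold higher, interval 1.44 to 2.84).

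Cxcl1, Cxcl2 and Cxcl3 are neighbours on chromosome 5, and their promoters are shown because the 3 genes share a motif while their UMIs lay in different classes. The windows run from 130 to 31 bases before the transcription start (RefSeq, GRCm38.p6, plus strand, 5′ to 3′). Capitals mark GGGAATTTCCC, the longest run of letters that all 3 promoters hold in the 250 bases before the start, which is of the type bound by the inflammatory factor NF-kappaB.
Cxcl1: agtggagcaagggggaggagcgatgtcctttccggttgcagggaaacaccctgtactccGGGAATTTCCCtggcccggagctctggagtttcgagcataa
Cxcl2: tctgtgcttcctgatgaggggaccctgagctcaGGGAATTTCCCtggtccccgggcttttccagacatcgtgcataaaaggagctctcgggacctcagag
Cxcl3: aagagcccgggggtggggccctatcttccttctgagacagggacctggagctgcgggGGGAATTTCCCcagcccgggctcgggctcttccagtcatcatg
They lie at chr5:90891115-90891214, chr5:90903769-90903868 and chr5:90785971-90786070. The motif began 71, 97 and 73 bases before the start of Cxcl1, Cxcl2 and Cxcl3, on the strand of the gene. Among 32851 promoter windows of 250 bases before a start, 14 (0.0426%) held these letters on either strand, these 3 among them. The letters were picked because the 3 promoters share them, so the count is a description and tests nothing.

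IL-1 family genes, which start and restrain inflammatory signalling, were higher for 7 of 10 measured members and lower for none (median log2 ratio 3.55). The ligand Il1b had 1350 UMIs (1336 CPM) in the injured and 44 (40.1 CPM) in the uninjured library, 33.3-fold higher, interval 24.7 to 46.05, and Il1a had 53 and 0 UMIs (at least 19.2-fold higher). The receptor antagonist Il1rn had 319 and 3 UMIs (115-fold higher, interval 39.1 to 563), and Nlrp3, the inflammasome sensor, 91 and 2 UMIs (49.4-fold higher, interval 13.3 to 414). Agonist, antagonist and sensor thus moved the same way, and neutrophil-like cells held 92.4% of injured Il1b, 87.1% of Il1rn and 94.5% of Nlrp3 UMIs. Il1rl1, the receptor for IL-33, was an exception by class: 93.8% of its 48 injured UMIs were mesenchymal-like, against 1 UMI in the uninjured library (41 and 0 UMIs without the 3 deepest cells of each library). The common receptor Il1r1 had 84 and 98 UMIs and did not meet the call.

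CC chemokines went both ways, with 5 higher and 4 lower of 12 measured. Ccl3 and Ccl4, ligands that attract monocytes and other leukocytes, had 148 and 0 UMIs and 252 and 3 UMIs in the injured and uninjured library (at least 53.5-fold higher and 91.2-fold higher, interval 30.8 to 445), mostly in neutrophil-like cells. Ccl5, a T-cell attractant, was 75.97-fold higher, interval 13.2 to 3043. The clusters put its UMIs in the monocyte or macrophage-like class, but with each cell classed by its highest marker level, 2 injured T or NK-like cells held 98.6% of the injured ones. Ccl8 and Ccl11, attractants of monocytes and eosinophils, had 12 and 172 UMIs and 28 and 245 UMIs and were 13.2-fold lower and 8.06-fold lower. The monocyte attractants Ccl2 (107 and 108 UMIs) and Ccl7 (97 and 114 UMIs) did not meet the call. Ccl21a, which guides dendritic and T cells to lymphatics, had 0 UMIs (0 CPM) in the injured and 680 (619.9 CPM) in the uninjured library, at least 209-fold lower, in 8 cells. By highest marker level, 4 lymphatic endothelial-like cells held 91.6% of the uninjured ones. The genome holds near-identical copies of this gene, so its counts are uncertain.

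Cytokines and inflammatory mediators were higher for 10 of 16 measured members and lower for none. Slpi, a secreted inhibitor of neutrophil elastase, had 788 and 63 UMIs (13.6-fold higher, interval 10.5 to 17.8) with 87.1% of injured UMIs in neutrophil-like cells. The acute-phase gene Saa3 had 75 and 0 UMIs (at least 27.1-fold higher), Ptx3, a soluble pattern-recognition protein, 37 and 1 UMI, and Il6 28 and 1 UMI. In contrast to Slpi, these 3 lay mainly in mesenchymal-like cells (69.3%, 81.1% and 64.3% of injured UMIs). Prostaglandin synthase Ptgs2 was 20.3-fold higher, from 75 and 4 UMIs, with 77.3% in neutrophil-like cells.

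Macrophage genes did not follow the neutrophil genes. Of 15 measured members 2 were higher and 7 lower (median log2 ratio -0.61). Monocyte or macrophage-like cells held only 44.9% of the injured and 44.4% of the uninjured UMIs of the list. Keratinocyte-like cells held 43.5% of the injured ones. In the uninjured library mesenchymal-like cells held 34.6% and Schwann or glial-like cells 11.0%. The complement C1q chains, made by tissue macrophages, were all lower: C1qa had 21 and 123 UMIs (5.40-fold lower, interval 3.38 to 9.03), C1qb 47 and 215 UMIs (4.22-fold lower, interval 3.06 to 5.91) and C1qc 22 and 114 UMIs (4.77-fold lower, interval 3.01 to 7.92). With every cell thinned to 500 UMIs the direction turned, at 9 and 5 UMIs for C1qa and 19 and 15 UMIs for C1qb. The mannose receptor Mrc1 and the hyaluronan receptor Lyve1, markers of resident macrophages and Lyve1 also of lymphatic endothelium, had 6 and 29 UMIs and 1 and 34 UMIs. With each cell classed by its highest marker level, 18 of the uninjured Lyve1 UMIs lay in monocyte or macrophage-like cells and the 1 injured UMI in a mesenchymal-like cell. By contrast Ccr2, the chemokine receptor of blood monocytes, had 43 and 15 UMIs (3.11-fold higher, interval 1.69 to 6.03). The C1q UMIs lay mostly in the monocyte or macrophage-like class in both limbs, at 100% and 90.7% for C1qb, which is among the markers that named it. That class had 38 injured and 9 uninjured cells, but 2 and 4 when all 4 libraries were clustered together and 9 and 5 when each cell was classed by its highest marker level. In those groupings 16 and 20 injured and 3 and 4 uninjured cells were dendritic-like, a class the clusters did not separate. Lyz2 (377 and 440 UMIs) did not meet the call. MHC class II genes, which present antigen to T cells, were higher for 3 of 6 measured members, with H2-Aa at 739 and 281 UMIs (2.85-fold higher, interval 2.48 to 3.29) and Cd74 at 1566 and 925 UMIs below the 2-fold limit. By highest marker level, dendritic-like cells held 93.5% of injured H2-Aa, 94.0% of Cd74 and 41.9% of Ccr2 UMIs, whereas C1qb remained in the monocyte or macrophage-like class (93.6% and 89.3% in the injured and uninjured library).

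**Figure D2:**
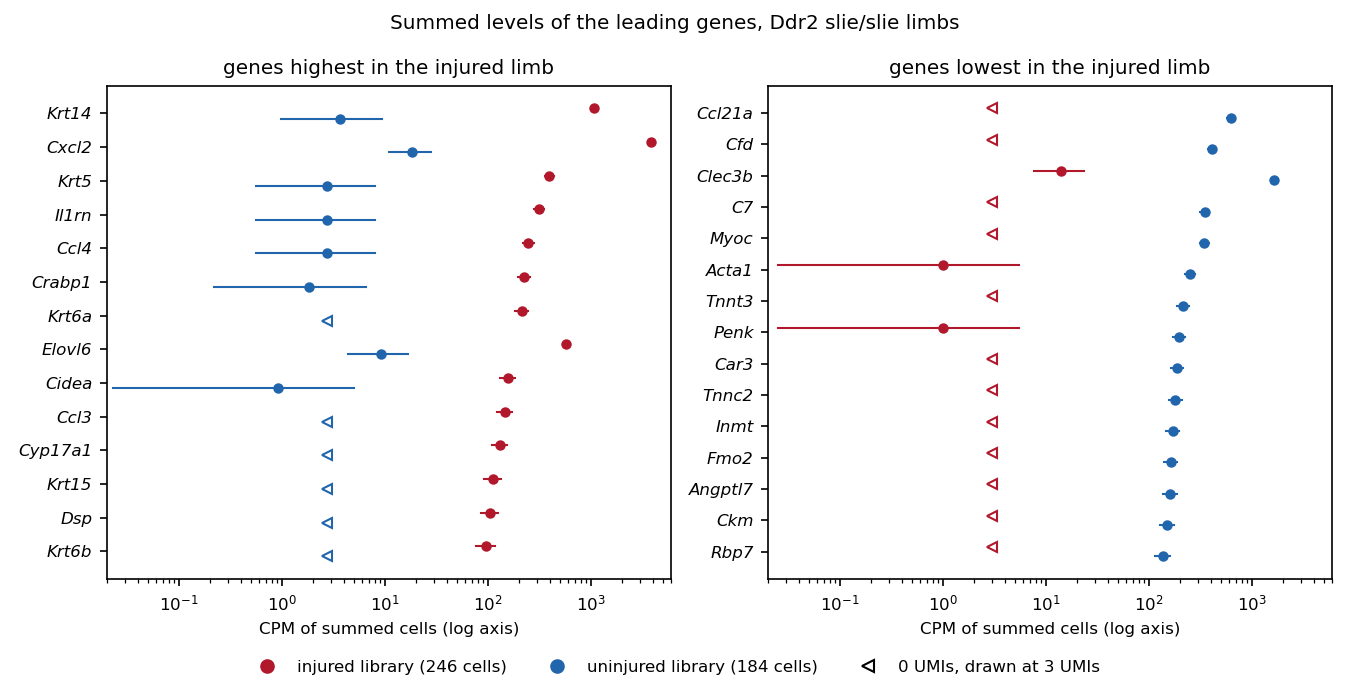
CPM (log axis) of 14 of the 15 genes highest and of the 15 lowest in the injured over the uninjured Ddr2 slie/slie limb, with exact Poisson 95% intervals, and open triangles at the level of 3 UMIs where a library had 0. Higher genes reached 3836 and 18.2 CPM (Cxcl2) in the injured and uninjured library, and 12 of the 15 lower genes had 0 UMIs in the injured library.

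Keratinocyte genes formed the highest list median. Of 17 measured keratin and cornified envelope genes, 15 were higher and 0 lower (median log2 ratio 4.44). Krt14 and Krt5, the keratin pair of the basal epidermis, had 1083 and 4 UMIs (294-fold higher, interval 114 to 1080.4) and 400 and 3 UMIs (145-fold higher, interval 49.2 to 705). The wound-associated keratins Krt6a and Krt6b had 216 and 0 UMIs and 97 and 0 UMIs, Krt15 had 113 and 0 UMIs, and the desmosome gene Dsp 106 and 0 UMIs, so each was a bound (at least 78.1-fold higher for Krt6a). Almost all of these UMIs (99.9% of Krt14) lay in the 26 keratinocyte-like cells of the injured library. Krt14, Krt5, Krt15 and Dsp are among the markers that named this class, so their shares follow in part from the naming. Some differentiated-layer genes separated the limbs less: Krtdap had 271 and 157 UMIs and Lgals7 1028 and 191 UMIs (5.84-fold higher). By highest marker level, only 3 keratinocyte-like cells held 98.1% and 97.9% of their uninjured UMIs. The keratins of these layers went different ways: Krt10 had 57 and 51 UMIs and did not meet the call, whereas Krt1 had 94 and 8 UMIs and was higher. Most keratinocyte-like cells (23 of 29 over both libraries) had under 0.5% mitochondrial UMIs, as did 40 of 44 neutrophil-like cells. Without cells under that level the keratin list had 12 members higher and 0 lower (median log2 ratio 4.45), and the neutrophil list 2 higher and 1 lower (median log2 ratio 0.95). The labels do not say how much skin was dissected with each limb.

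Several leading genes rested on 1 cell. Elovl6, an enzyme of fatty acid elongation, had 589 and 10 UMIs, and 1 injured cell held 95.4% of the injured ones. Cyp17a1, a steroid hydroxylase (133 and 0 UMIs), and Cidea, a lipid droplet protein (158 and 1 UMI), were found in 2 and 3 injured cells. Without the 3 deepest cells of each library the log2 ratio went from 6.0 to 1.52 for Elovl6, Cyp17a1 kept 1 UMI, and Cidea had 26 and 1 UMI. Crabp1, a retinoic acid-binding protein, was spread over 16 injured cells, with 229 and 2 UMIs (124-fold higher, interval 34.01 to 1032) and 93.9% in mesenchymal-like cells.

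Matrix genes of healing tissue were higher, most of all the matricellular proteins, which modulate how cells attach to matrix. Of 17 measured matricellular proteins, 11 were higher and 0 lower (median log2 ratio 1.36). Periostin (Postn) had 1368 UMIs (1353 CPM) in the injured and 149 (136 CPM) in the uninjured library, 9.96-fold higher, interval 8.41 to 11.9. Tenascin-C (Tnc) had 453 and 65 UMIs (7.56-fold higher, interval 5.82 to 9.97), connective tissue growth factor (Ctgf) 457 and 86 UMIs (5.77-fold higher, interval 4.57 to 7.35) and Cthrc1, a collagen triple helix repeat protein, 419 and 105 UMIs (4.33-fold higher, interval 3.49 to 5.42). In the clusters, mesenchymal-like cells (36 injured and 60 uninjured) held 77.2% of the injured Postn and 85.7% of the injured Tnc UMIs. By highest marker level this class had 101 injured and 62 uninjured cells and held 95.2% and 94.0%. Spp1, osteopontin, had 1177 and 339 UMIs (3.77-fold higher), and its largest share lay in neutrophil-like cells in the injured (47.9%) and in mesenchymal-like cells in the uninjured library (74.6%). Deep cells weighed on the sizes: without the 3 deepest cells of each library the log2 ratio went from 2.11 to 2.75 for Cthrc1, from 3.32 to 4.38 for Postn, from 2.92 to 6.41 for Tnc, from 1.91 to 3.08 for Spp1 and from 2.53 to 1.18 for Ctgf. Sparc, the most abundant member, had 4617 and 7394 UMIs and did not meet the call.

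The main fibrillar collagens stayed under 2-fold in the summed limbs. Col1a1 had 8508 and 5979 UMIs (1.54-fold higher, interval 1.49 to 1.60), Col1a2 3918 and 3076 UMIs (1.38-fold higher, interval 1.32 to 1.45) and Col3a1 2872 and 3537 UMIs (1.13-fold lower, interval 1.08 to 1.19). Only the 2 minor chains Col5a1 (532 and 260 UMIs, 2.22-fold higher) and Col11a1 (178 and 39 UMIs, 4.95-fold higher), which set fibril width, met the call among 7 measured. Among other interstitial collagens 3 of 8 were higher and 0 lower, led by Col12a1, a fibril-associated collagen, with 367 and 44 UMIs (9.05-fold higher, interval 6.61 to 12.7), whose log2 ratio went from 3.18 to 3.82 without the 3 deepest cells of each library. Col6a1, Col6a2 and Col6a3, the chains of beaded-filament collagen, stayed under 2-fold. Enzymes that fold and crosslink collagen were higher for 6 of 17 measured members and lower for none, with lysyl oxidase Lox at 277 and 75 UMIs (4.01-fold higher, interval 3.10 to 5.24) and the lysyl hydroxylase Plod2 at 84 and 23 UMIs (3.96-fold higher).

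Small leucine-rich proteoglycans, which coat collagen fibrils, went the other way. Of 11 measured small leucine-rich proteoglycans, 2 were higher and 7 lower (median log2 ratio -1.73). Decorin (Dcn) had 1147 UMIs (1135 CPM) in the injured and 9416 (8583 CPM) in the uninjured library, 7.56-fold lower, interval 7.11 to 8.05, and osteoglycin (Ogn) 156 and 682 UMIs (4.03-fold lower, interval 3.38 to 4.83). Biglycan (Bgn) was the exception among abundant members, with 1049 and 508 UMIs (2.24-fold higher, interval 2.01 to 2.50), but it fell below the 2-fold call without the 3 deepest cells of each library (714 and 465 UMIs, log2 ratio from 1.16 to 0.93). Mesenchymal-like cells held 88.3% and 98.5% of injured and uninjured Dcn UMIs. The elastic fibre list was mixed (5 higher and 3 lower of 17): the microfibril genes Fbn2 (81 and 5 UMIs) and Ltbp2 (56 and 4 UMIs) were 17.6-fold higher and 15.2-fold higher (74 and 1 UMI and 52 and 2 UMIs without the deepest cell of each library), while Ltbp4, a carrier of latent TGF-beta, had 15 and 180 UMIs (11.1-fold lower). Basement membrane genes had 2 higher and 4 lower members of 16, with Col18a1 at 227 and 46 UMIs (5.36-fold higher) and the laminin chain Lama2 at 10 and 85 UMIs (7.83-fold lower).

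Proteases and their inhibitors also divided. Of 17 measured members 7 were higher and 4 lower. Mmp14, a membrane-anchored collagenase, had 325 and 138 UMIs (2.56-fold higher), Adam12 54 and 2 UMIs (29.3-fold higher, interval 7.73 to 248) and the inhibitor Timp1 752 and 146 UMIs (5.59-fold higher, interval 4.68 to 6.72), and mesenchymal-like cells held most of the injured UMIs of all 3. Without the deepest cell of each library the log2 ratio went from 2.48 to 3.33 for Timp1, and Adam12 had 50 and 0 UMIs. The other 3 inhibitors were lower: Timp2 had 412 and 1118 UMIs, Timp3 110 and 429 UMIs and Timp4 6 and 293 UMIs (45.00-fold lower). Their uninjured UMIs lay in different classes. By highest marker level, mesenchymal-like cells held 86.3% of uninjured Timp2. Endothelial-like cells, 7 injured and 50 uninjured, held 58.4% of uninjured Timp4 and, as the largest share, 30.5% of Timp3. The lubricin gene Prg4 had 131 and 132 UMIs and did not meet the call (without the 3 deepest cells of each library its log2 ratio went from 0.11 to -1.59), whereas the hyaluronan receptor Cd44 had 111 and 17 UMIs (7.09-fold higher) and the hyaluronan-binding proteoglycan Vcan 156 and 80 UMIs (2.12-fold higher), whose log2 ratio went from 1.08 to 1.68 without those cells. In that list of lubricin and hyaluronan genes 3 of 7 measured members were higher and none lower.

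**Figure D3:**
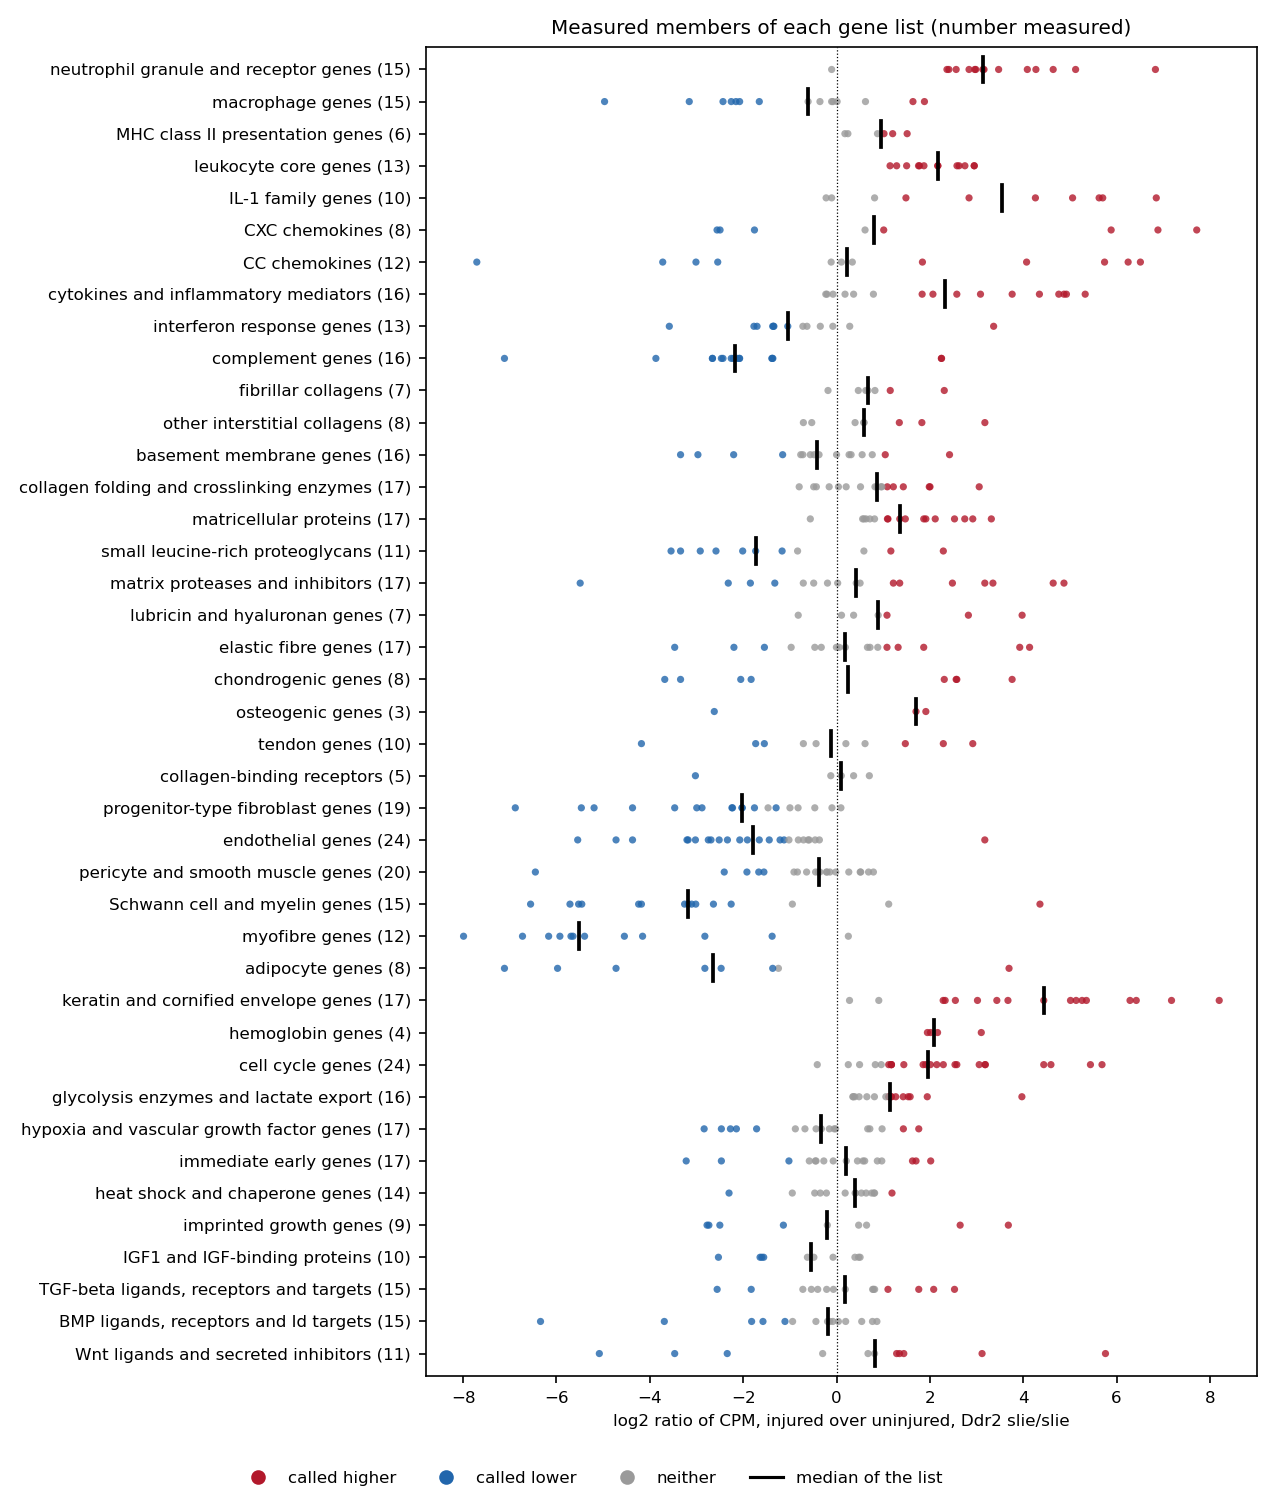
Log2 ratio of CPM, injured over uninjured Ddr2 slie/slie limb, for each measured member (point) of the 41 gene lists, with the list median as a black bar and members with 0 UMIs in a library at their bound. Keratin, IL-1 family and neutrophil medians lay farthest to the right, and myofibre and myelin medians farthest to the left.

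Genes of resting connective tissue were lower in the injured limb. Of 19 measured progenitor-type fibroblast genes, 0 were higher and 13 lower (median log2 ratio -2.03). Gelsolin (Gsn, ENSMUSG00000026879, chromosome 2, 35256380 to 35307892, plus strand), an actin-severing protein, had 298 UMIs (295 CPM) in the injured and 11839 (10792 CPM) in the uninjured library, 36.6-fold lower, interval 32.6 to 41.2. Clec3b, the plasminogen-binding protein tetranectin, had 14 and 1792 UMIs (118-fold lower, interval 70.1 to 216), and Pi16, a marker of adventitial fibroblasts, 26 and 208 UMIs (7.37-fold lower, interval 4.89 to 11.6). Mesenchymal-like cells held 97.7% of uninjured Gsn and 98.4% of uninjured Clec3b UMIs, and the genes were found in 125 and 74 of 184 uninjured cells. Further genes with 0 injured UMIs were C7, a terminal complement component (0 and 381 UMIs), Myoc, myocilin (0 and 380 UMIs), Inmt, an indolethylamine methyltransferase (0 and 186 UMIs), Fmo2, a flavin monooxygenase (0 and 178 UMIs), and Angptl7, an angiopoietin-like protein (0 and 176 UMIs). Penk, proenkephalin, had 1 and 216 UMIs.

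Complement genes were mostly lower in the injured limb, with 14 lower and 2 higher of 16 measured (median log2 ratio -2.17). Their UMIs lay in different classes. The C1q chains lay in monocyte or macrophage-like cells as described, while C3 (15 and 238 UMIs, 14.6-fold lower, interval 8.69 to 26.5), the protease C1ra (21 and 144 UMIs, 6.32-fold lower, interval 3.98 to 10.5) and the inhibitor Serping1 (221 and 1109 UMIs, 4.62-fold lower, interval 3.999 to 5.37) lay mainly in uninjured mesenchymal-like cells. Cfd, the adipocyte-rich protease adipsin, had 0 and 451 UMIs (at least 139-fold lower).

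Vessel genes were lower. Of 24 measured endothelial genes, 1 was higher and 16 lower (median log2 ratio -1.78). Fabp4, a fatty acid-binding protein of capillary and fat cells, had 355 UMIs (351 CPM) in the injured and 10180 (9279.8 CPM) in the uninjured library, 26.4-fold lower, interval 23.8 to 29.5. Gpihbp1, which holds lipoprotein lipase on capillary walls, had 12 and 608 UMIs (46.7-fold lower, interval 26.5 to 90.9), the VEGF receptor Flt1 15 and 150 UMIs (9.21-fold lower, interval 5.41 to 16.9) and the retinol-binding protein Rbp7 0 and 150 UMIs (at least 46.1-fold lower). The water channel Aqp1 had 28 and 204 UMIs (6.71-fold lower). Apln, the apelin ligand of growing vessels, was the only higher member, with 25 and 0 UMIs (at least 9.04-fold higher). Endothelial-like cells numbered 7 in the injured and 42 in the uninjured library and held 10.7% and 18.1% of the UMIs. The 10 endothelial markers summed to 879 CPM in the injured and 10763 CPM in the uninjured library. Fabp4 made up 355 of the 889 injured and 10180 of the 11807 uninjured UMIs of that sum, so the uninjured sum was mostly this gene.

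Mural cell genes differed less in the slie/slie sums. Of 20 measured members 0 were higher and 5 lower (median log2 ratio -0.37). In the littermate controls 0 were higher and 12 lower of 20 (median log2 ratio -1.79). Acta2, smooth muscle actin, had 2231 and 2450 UMIs (1.01-fold lower, interval 0.955 to 1.07), with 69.3% of the injured UMIs in 1 cell. The near-equal sums of Acta2 thus rested largely on that cell, as the comparison inside the class below also shows. The pericyte marker Rgs5 had 329 and 394 UMIs (1.10-fold lower, interval 0.951 to 1.28). Pln, phospholamban, and Myh11, smooth muscle myosin, were lower with 1 and 95 UMIs and 100 and 319 UMIs.

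Myelin genes were lower for 12 of 15 measured members and higher for 1 (median log2 ratio -3.18). Mbp, myelin basic protein, had 6 UMIs (5.94 CPM) in the injured and 341 (311 CPM) in the uninjured library, 52.4-fold lower, interval 23.8 to 144. The Schwann or glial-like cluster, named in part from Mbp, held 95.3% of uninjured Mbp UMIs. The higher member, Fa2h, a fatty acid hydroxylase with 189 and 10 UMIs (30 and 10 UMIs without the 3 deepest cells of each library), lay in keratinocyte-like cells (99.5% of injured UMIs).

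Muscle fibre genes had the lowest list median. Of 12 measured myofibre genes, 0 were higher and 11 lower (median log2 ratio -5.52). Acta1, skeletal muscle actin, had 1 UMI (0.989 CPM) in the injured and 276 (252 CPM) in the uninjured library, 254-fold lower, interval 45.3 to 10081, and the troponins Tnnt3 and Tnnc2 and the creatine kinase Ckm had 0 and 234 UMIs, 0 and 198 UMIs and 0 and 163 UMIs. No cluster was named myofibre: the Acta1 UMIs of the uninjured library were spread over 65 of 184 cells, and the Schwann or glial-like cluster held 69.2% of them. With each cell classed by its highest marker level, myofibre-like cells held 45.3%. Fat cell genes were lower for 6 of 8 measured members, among them Car3, a carbonic anhydrase (0 and 205 UMIs), and Lpl, lipoprotein lipase (94 and 566 UMIs). Scd1, a fatty acid desaturase, was higher with 812 and 68 UMIs, of which 95.3% lay in 1 cell. Without the 3 deepest cells of each library it had 35 and 66 UMIs, and the log2 ratio of Lpl went from -2.47 to -3.52. Hemoglobin genes were higher for all 4 measured members, with Hbb-bs at 22660 and 5486 UMIs (4.48-fold higher), of which the unnamed cluster held 99.1% in the injured library. This result depends on which barcodes count as cells. The barcodes left out held 482319 injured and 443051 uninjured UMIs, most of them hemoglobin as given above, and over all barcodes hemoglobin took 33.3% of the injured and 24.3% of the uninjured UMIs. Without barcodes under 0.5% mitochondrial UMIs the median log2 ratio of the list reversed to -5.35. Hbb-bs and Hbb-bt are near-identical, as are Hba-a1 and Hba-a2, so the split of counts within each pair is uncertain.

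Genes of cell division were higher. Of 24 measured cell cycle genes, 19 were higher and 0 lower (median log2 ratio 1.96). Mki67, a proliferation antigen, had 95 UMIs (93.98 CPM) in the injured and 2 (1.82 CPM) in the uninjured library, 51.5-fold higher, interval 13.9 to 432, and Cenpf, a kinetochore protein, 89 and 4 UMIs (24.1-fold higher, interval 9.11 to 90.6). The chromatin proteins Hmgb2 and H2afz had 348 and 139 UMIs and 926 and 445 UMIs. Pericyte or smooth muscle-like cells held 47.4% of injured Mki67 UMIs, and no class held most of the injured Hmgb2 UMIs (23.6% at most). By highest marker level it was mesenchymal-like cells that held 63.2% of injured Mki67 and 55.1% of Cenpf UMIs, so the class depends on the grouping. Mki67 had 95 and 1 UMI, Cenpf 89 and 2 UMIs and Hmgb2 301 and 70 UMIs without the 3 deepest cells of each library. Glycolysis genes were higher for 9 of 16 measured members and lower for none. Gapdh had 1870 and 898 UMIs (2.26-fold higher, interval 2.09 to 2.45) and the lactate exporter Slc16a3 159 and 11 UMIs (15.7-fold higher), the latter with 82.4% in neutrophil-like cells and a log2 ratio that went from 3.97 to 5.26 without the 3 deepest cells of each library.

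Lineage genes of cartilage, tendon and bone divided within each list. Chondrogenic genes had 4 higher and 4 lower of 8 measured members. The cartilage regulator Sox9 had 49 and 9 UMIs (5.91-fold higher, interval 2.87 to 13.7), aggrecan (Acan) 25 and 2 UMIs (13.6-fold higher, interval 3.38 to 118) and Runx1 154 and 28 UMIs (5.97-fold higher, interval 3.97 to 9.28). Cartilage oligomeric matrix protein (Comp) was lower with 11 and 153 UMIs (12.8-fold lower, interval 6.96 to 26.2; 5 and 153 UMIs without the 3 deepest cells of each library), as was the proteoglycan Chad with 0 and 33 UMIs. By highest marker level, only 2 tenocyte-like cells held 78.8% of the uninjured Chad UMIs. In the tendon list 3 of 10 were higher and 3 lower. The tendon regulator Scx had low counts, 38 and 27 UMIs, and did not meet the call. Tnmd, tenomodulin, had 53 and 168 UMIs (2.92-fold lower). By highest marker level, mesenchymal-like cells held 100% of the injured UMIs of both genes. In the uninjured library the same 2 tenocyte-like cells held 92.6% of Scx, and mesenchymal-like cells 51.2% of Tnmd UMIs. Only 3 osteogenic genes were measured, with 2 higher and 1 lower. They were Spp1, the bone regulator Runx2 with 18 and 6 UMIs (3.26-fold higher, interval 1.24 to 10.02), and alkaline phosphatase Alpl with 0 and 20 UMIs (at least 6.14-fold lower), whose uninjured UMIs lay mostly in endothelial-like cells (85%).

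Of 11 listed receptors that bind collagen, Ddr2 among them, 5 were measured, with 0 higher and 1 lower. So few members cannot be told apart from the 10.1% higher and 12% lower over all measured genes. The littermate controls also had 0 higher and 1 lower of 5 measured. Itgb1, the shared beta chain of the collagen-binding integrins, had 802 and 811 UMIs (1.07-fold higher, interval 0.972 to 1.18), and the alpha chain Itga1 57 and 48 UMIs (1.29-fold higher, interval 0.862 to 1.93). Mrc2, an endocytic collagen receptor, had 48 and 32 UMIs (1.63-fold higher, interval 1.02 to 2.63), and the paralogue Ddr1 11 and 13 UMIs (1.09-fold lower, interval 0.450 to 2.68). Cd36, which binds collagen and fatty acids, was lower with 56 and 494 UMIs (8.13-fold lower, interval 6.16 to 10.9), and endothelial-like cells held 69.03% of its uninjured UMIs. Its log2 ratio went from -3.02 to -3.63 without the 3 deepest cells of each library. Itga11 had 12 and 3 UMIs, Itga2 4 and 6 UMIs, Lair1 4 and 2 UMIs, Itga10 1 and 3 UMIs and Gp6 0 and 0 UMIs, all under the 20 UMIs needed.

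In 2 classes with at least 20 cells in both libraries, the limbs could be compared inside the class. The mesenchymal-like class held 36 injured and 60 uninjured cells. The limbs lay in different clusters of it: cluster 8 held 27 injured cells and 1 uninjured cell, and cluster 1 held 9 injured and 59 uninjured cells. Of 5507 genes measured there, 584 were higher (10.6%) and 535 lower (9.71%). Of genes higher in the sums and measured in the class, 279 of 372 were also higher inside it, and of the lower ones 377 of 613. The 3 deepest cells held 56.1% of the injured and 17.3% of the uninjured UMIs of the class. Genes that lead those clusters are not named as results within it. The list counts below still include them, 1 among the matricellular and 1 among the progenitor-type fibroblast members, whose calls follow in part from the clustering.

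Inside the mesenchymal-like class the healing matrix genes were higher and the resting genes lower, as in the sums. Matricellular proteins were higher for 14 of 17 measured members (median log2 ratio 1.61), with Postn at 1056 and 117 UMIs (14.5-fold higher, interval 11.97 to 17.7). Folding and crosslinking enzymes were higher for 9 of 16, including Lox (244 and 61 UMIs, 6.43-fold higher, interval 4.84 to 8.65). The fibrillar chain Col1a1 just met the call (7218 and 5646 UMIs, 2.05-fold higher, interval 1.98 to 2.13), with a log2 ratio that went from 1.04 to 1.91 without the 3 deepest cells of each library in the class, to 0.89 without the deepest cell and to 0.76 by highest marker level, the last 2 below the call. Col3a1 did not meet it (2248 and 3384 UMIs, 1.07-fold higher, interval 1.01 to 1.13). Progenitor-type fibroblast genes were lower for 12 of 18 and higher for none, with Gsn at 169 and 11567 UMIs (42.6-fold lower, interval 36.6 to 49.9). Complement genes were lower for 9 of 10, with C3 at 5 and 230 UMIs (28.6-fold lower, interval 12.1 to 89.02). Glycolysis genes were higher for 7 of 13. The acute-phase genes Saa3 (52 and 0 UMIs) and Ptx3 (30 and 0 UMIs) and the imprinted RNA H19 (278 and 17 UMIs, 26.3-fold higher, interval 16.1 to 45.7) were higher, in 9, 10 and 19 injured cells. Without the 3 deepest cells of each library in the class, the log2 ratio went from 3.86 to 6.17 for Postn, from 2.68 to 3.58 for Lox, from -5.41 to -7.28 for Gsn, from -4.84 to -3.46 for C3 and from 4.72 to 7.18 for H19. The bounds went from 4.80 to 5.71 for Saa3 and from 4.01 to 4.66 for Ptx3.

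Pericyte or smooth muscle-like cells, 21 injured and 20 uninjured, as the clusters set them, showed a collagen difference that was under 2-fold in the sums and smaller in another grouping. Of 1980 genes measured in the class, 230 were higher (11.6%) and 229 lower (11.6%). All 6 measured fibrillar collagens were higher (median log2 ratio 4.12). Col1a1 had 671 and 23 UMIs (31.99-fold higher, interval 21.1 to 50.8) in 18 injured and 10 uninjured cells, Col3a1 390 and 36 UMIs (11.9-fold higher, interval 8.43 to 17.2) and Postn 135 and 8 UMIs (18.5-fold higher, interval 9.13 to 43.7). Cell cycle genes were higher for 9 of 10 measured members, with Mki67 at 45 and 0 UMIs (at least 16.4-fold higher) in 7 injured cells. The contractile genes that define the class did not separate the limbs in the same way: Acta2 had 1685 and 1863 UMIs (1.01-fold lower, interval 0.943 to 1.08), with 91.8% of the injured UMIs in 1 cell, and without the deepest cell of each library in the class its log2 ratio went from -0.01 to -2.55. Lower genes included Timp3 (7 and 80 UMIs, 10.4-fold lower, interval 4.83 to 26.8) and the calcineurin regulator Rcan2 (0 and 42 UMIs, at least 12.8-fold lower). The 3 deepest cells held 67.5% of the injured UMIs of this class. Without the 3 deepest of each library the log2 ratio went from 5.0 to 6.32 for Col1a1, from 4.21 to 5.32 for Postn and from -3.38 to -4.65 for Timp3, and the bound from -3.67 to -2.17 for Rcan2. Mesenchymal markers supported the cluster as its second class, with 6 of 12 markers. By highest marker level the class had 17 injured and 20 uninjured cells, and mesenchymal-like cells held 69.0% of the injured UMIs of the pericyte marker Rgs5. In the class set that way, 110 of the 230 higher and 145 of the 229 lower genes had the same call. The log2 ratio was 3.10 for Col1a1, 1.97 for Col3a1 and 2.63 for Postn, and Mki67 had 5 and 0 UMIs.

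**Figure D4:**
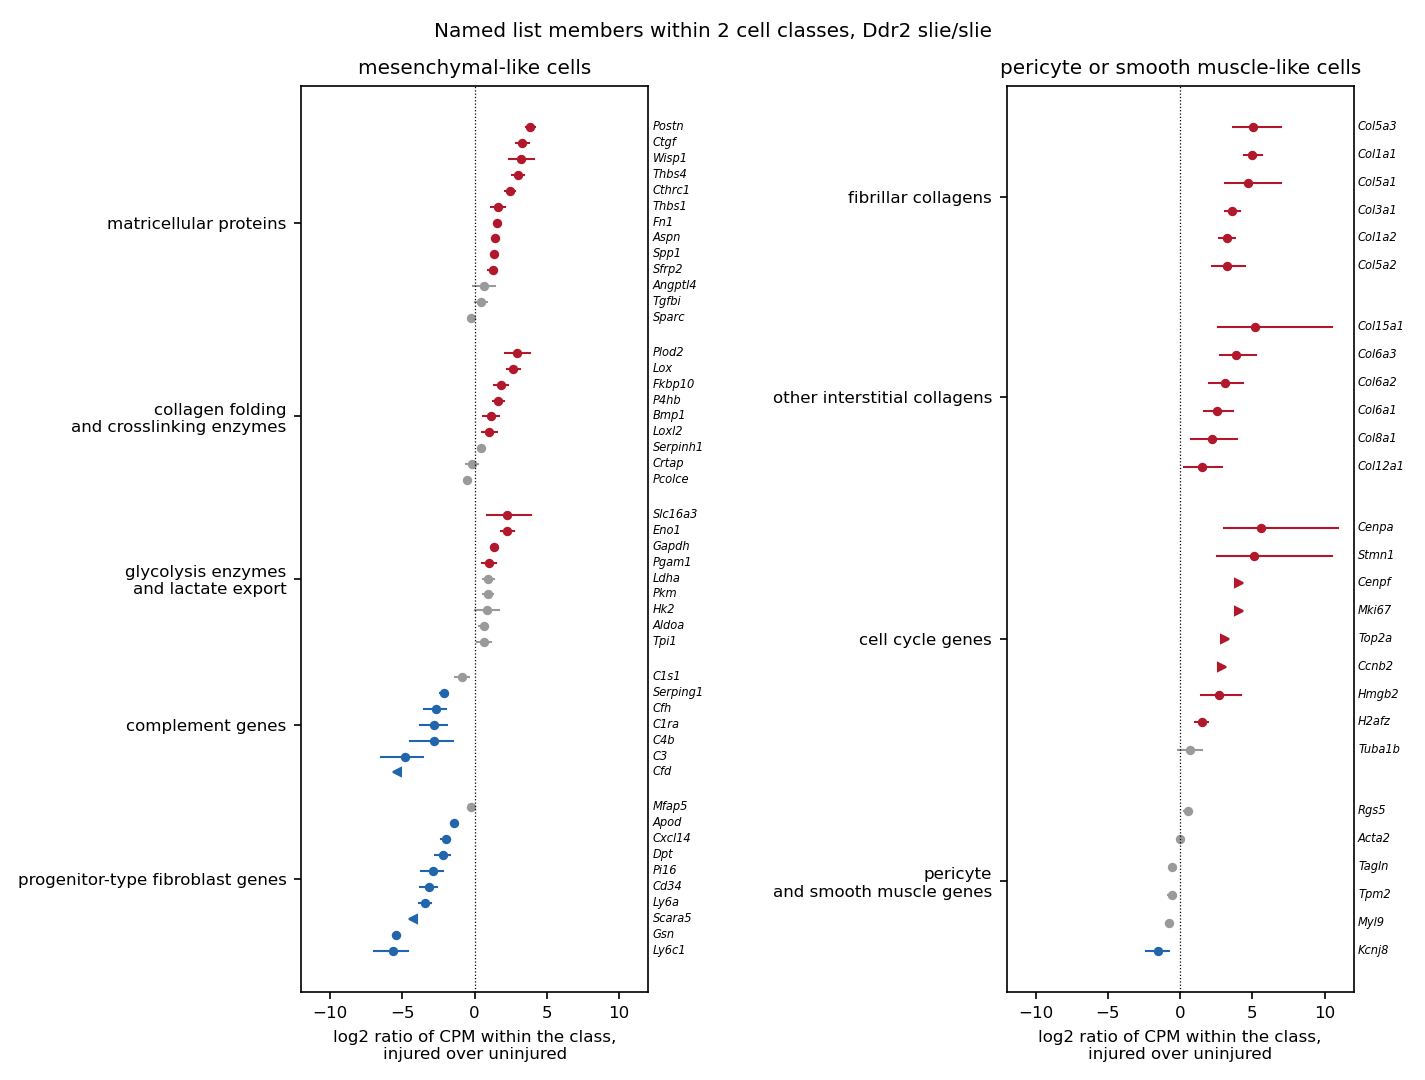
Log2 ratio of CPM within the mesenchymal-like (left) and the pericyte or smooth muscle-like class (right), injured over uninjured, for named list members with 20 or more UMIs in the class. Bars are 95% counting intervals, triangles are bounds where a library had 0 UMIs, red and blue mark higher and lower calls. All 6 measured fibrillar collagens lay to the right of 0 in the pericyte or smooth muscle-like class.

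The same ratios were formed in the littermate controls, whose uninjured library held only 60 kept cells against 751 in the injured one. There 1052 of 10959 measured genes were higher (9.6%) and 1141 lower (10.4%). The control uninjured library kept 242888 UMIs against 4032783 in the control injured one, and 3 cells held 33.9% of those 242888. Of the genes measured in the controls, 1251 had 0 UMIs in the uninjured library, so their ratios are bounds. Of the 934 genes higher in slie/slie limbs, 914 were measured in the controls and 415 were higher there too (45.4% of those, and 41.05% of the control calls measured in slie/slie), with 9 lower. Of the 1104 lower genes, 971 were measured, 443 were lower there too (45.6% and 43.6%) and 34 were higher. Neutrophil genes pointed the same way in both genotypes, with 13 of 15 measured members higher in the controls, and so did keratin genes (15 of 17 higher). Macrophage genes did not: in the controls 12 of 14 were higher and 0 lower, with C1qb at 1404 and 7 UMIs (12.1-fold higher, interval 5.85 to 30.1) and Lyz2 at 7522 and 10 UMIs (45.3-fold higher, interval 24.6 to 94.5). All 7 fibrillar collagens were higher in the controls, with Col1a1 at 36961 and 660 UMIs (3.37-fold higher, interval 3.12 to 3.65). Whether these differences between genotypes exceed the spread between animals could not be tested with 1 library a group.

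**Figure D5:**
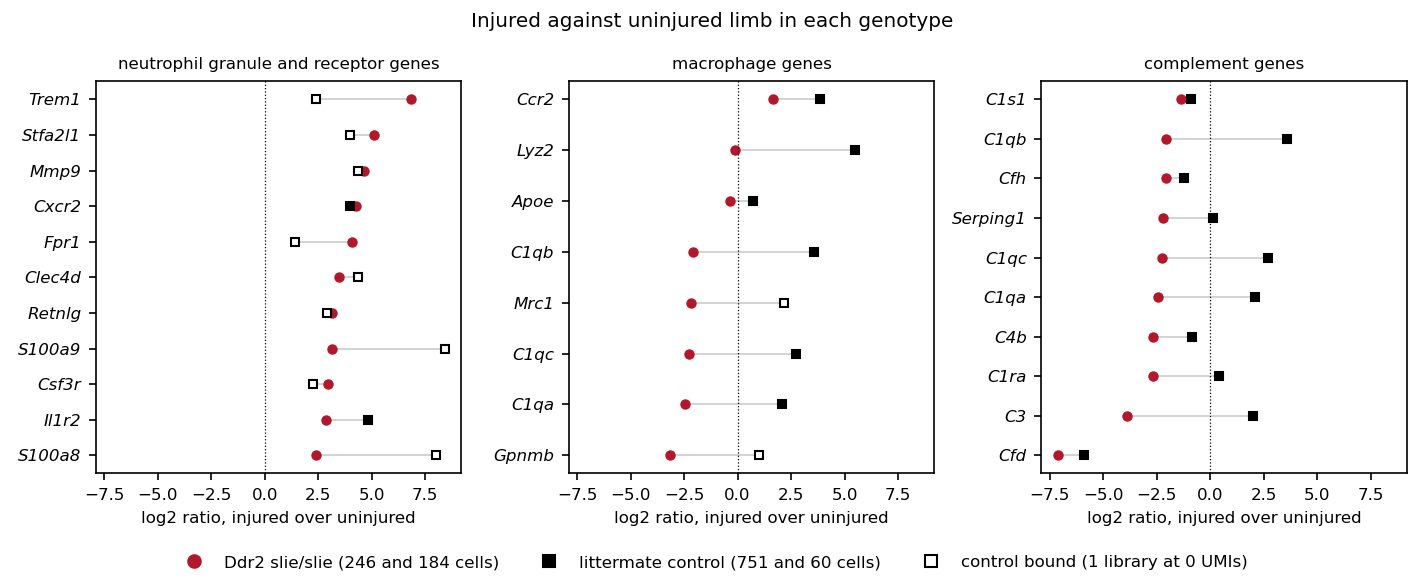
Log2 ratio of CPM, injured over uninjured limb, for named neutrophil, macrophage and complement genes in Ddr2 slie/slie (circles) and littermate control mice (squares), where open squares are bounds. Neutrophil genes lay to the right of 0 in both genotypes, and the 3 C1q chains lay left of 0 in slie/slie and right of 0 in the controls.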

How the data were processed

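The deposited values were raw UMI counts per gene and barcode, 1 filtered matrix for each of the 4 libraries, made by the authors: the file headers name version 5.0.1 of Cell Ranger, and the submitters' processing notes name mm10. No source used here states the annotation, the intron setting or how barcodes were called. Digestion took 20 minutes and the suspension passed a 40 micrometre strainer, per the labels' protocols. Matrices were read with Python 3.11.15, numpy 2.4.6, scipy 1.17.1, pandas 2.3.3 and scanpy 1.11.5. A barcode was kept if it had 200 or more genes and no more than 20% mitochondrial UMIs.

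Counts were summed per library and scaled to CPM. The 95% intervals are exact: conditional binomial for ratios, Poisson for levels, and Clopper-Pearson for shares of cells. The script that forms these ratios was tested on simulated data. Cells of both slie/slie libraries were clustered together after scaling to 10000 UMIs (2000 variable genes, 30 components, 15 neighbours, Leiden resolution 1, leidenalg 0.10.2). A cluster took the class, of 20, with the highest mean marker level where at least 3 of its markers were found in 20% or more of the cells at 2-fold or more of the median cluster and no other class had more markers among the 10 leading genes. A rule added after the data were seen left a cluster unnamed where the class second in level had more such markers. Scrublet called 3 injured and 1 uninjured barcodes as doublets, which were kept. Within a class, limbs were compared where both had 20 or more cells.

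The text names the 15 genes with the highest and the 15 with the lowest ratio among genes with 50 or more UMIs, ranked by the interval bound nearest 1 and leaving out mitochondrial, ribosomal protein, hemoglobin, predicted, Xist and Y-linked genes. From each of the 41 gene lists it draws on up to 6 measured members with the most UMIs and up to 4 more with the bound farthest from 1. The hemoglobin list, Ddr2 and the collagen-binding receptors were always included. Within a class the ranking took 10 genes each way with 30 or more UMIs. Members, lists and rules were chosen with earlier results of these data known. Of the listed genes, 10 had no match among the 27998 genes of the files. Alternatives changed the barcode filters, the scaling (edgeR 4.0.16 under R 4.3.3 for TMM), the weight and depth of cells, the gene minimum, the fold and the clustering; leaving out the deepest cell, and classing cells by marker level for comparisons within a class, were added after the data were seen. Some genes that the rule names are not reported here.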

Additional observations from a re-analysis of the deposited data

Results flagged for a closer look

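Genes named above were looked at again where they were lower in the injured slie/slie limb and higher in the injured limb of the littermate controls, both by at least 2-fold with intervals that excluded 1. The difference between genotypes was not tested, since each group was 1 library, and the control uninjured library rested on 60 cells. Of 34 genes that met these limits, only those named above were looked at, so the choice of gene lists shaped this set. Macrophage genes made up its largest group. The log2 ratio was -2.43 in slie/slie and 2.08 in control limbs for C1qa, -2.08 and 3.59 for C1qb, and -2.26 and 2.72 for C1qc. For the mannose receptor Mrc1 it was -2.16 in slie/slie limbs and at least 2.19 in the controls (227 and 0 UMIs), and for platelet factor Pf4, which these libraries held mainly in monocyte or macrophage-like cells, -2.50 and 4.0. The monocyte attractant Ccl8 had a log2 ratio of -3.72 in slie/slie and 1.26 in control limbs.

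The rest were genes of connective tissue and, for Aqp1, of capillaries. Complement C3 had log2 ratios of -3.87 in slie/slie and 1.99 in control limbs, cartilage oligomeric matrix protein (Comp) -3.68 and 1.19, the chemokine Cxcl14 -1.76 and 2.19, and Igf1 -1.60 and 2.89. The water channel Aqp1 had -2.75 in slie/slie limbs and at least 1.75 in the controls (168 and 0 UMIs). In the control uninjured library each of these 11 genes had 9 UMIs or fewer.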

How the results depend on the processing

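No paired analysis was possible because each limb was 1 library of pooled mice. The planned comparison inside classes with 10 or more cells in both libraries added no named class, and the unnamed cluster (76 and 13 cells), which met that minimum, was not compared. Scaling moved log2 ratios by at most 0.03 and reversed none. The 934 higher and 1104 lower genes became 241 and 234 with cells thinned to 500 UMIs, 1444 and 2126 with cells weighted equally, and 521 and 651 with 50 or more UMIs required. Lists with most measured members higher or lower went from 10 and 8 to 3 and 0 when thinned, and those mostly higher to 6 without leukocyte-like and unnamed cells. Inside the mesenchymal-like class thinning left 37 higher and 48 lower genes, and equal weights gave 1020 and 1425. Inside the pericyte or smooth muscle-like class 131 were higher without the 3 deepest cells, thinning left 23 and 14, and equal weights gave 613 lower genes. With cells classed by highest marker level instead of clustered, 635 and 555 genes were higher and lower in the mesenchymal-like and 188 and 230 in the pericyte or smooth muscle-like class.

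The uninjured Schwann or glial-like share was 8.70% with 4 libraries clustered, at resolution 0.5 and by highest marker level, 8.74% without doublets, 9.76% at 500 genes and 7.79% at 10% mitochondrial UMIs. The uninjured endothelial-like share was 33.2% at resolution 0.5, 33.3% without doublets, 31.7% at 500 genes and 33.8% at 10% mitochondrial UMIs. The injured mesenchymal-like share was 40.2% with 4 libraries, 3.66% at resolution 0.5, 41.1% by marker level, 2.88% without doublets and 29.7% at 10% mitochondrial UMIs, and the uninjured one 41.3% with 4 libraries. Monocyte or macrophage-like cells made up 0.813% of injured and 2.17% of uninjured cells with 4 libraries, and 3.66% of injured cells by marker level. Neutrophil-like cells made up 22.0% of injured cells at 500 genes.

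Without leukocyte-like and unnamed cells, an alternative that removes the cells that held them, list medians reversed to log2 ratios of -0.49 for neutrophil, -0.44 for leukocyte core and -4.40 for hemoglobin genes. Single genes reversed likewise: S100a8 to -1.31, S100a9 to -2.18, Srgn to -1.90, Cxcl2 to -1.76, Cxcr2 to -0.022, Il1b to -1.02, H2-Aa to -3.50, Junb to -0.29, Mrc1 to 1.15, Hba-a1 to -4.77, Hba-a2 to -4.77, Hbb-bs to -4.03 and Hbb-bt to -3.19. Without barcodes under 0.5% mitochondrial UMIs the hemoglobin median became -5.35 (Hba-a1 -5.99, Hba-a2 -5.78, Hbb-bs -4.83, Hbb-bt -4.91) and Ccl3 -1.05. Equal weights gave -0.018 for Hba-a1 and -0.079 for Hba-a2. Without the 3 deepest cells Cyp17a1 became -1.27 and Scd1 -0.60.

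Thinning left few UMIs, and the signs of Alpl (1.47), C1qa (0.73), C1qb (0.23), Ccl5 (-0.11), Cyp17a1 (-1.70), Fa2h (-0.11), Krt15 (-0.70), Ptx3 (-0.11), Runx2 (-1.70), Scd1 (-0.63) and Wif1 (-0.70) turned. At that depth C1qa had 9 and 5 UMIs and C1qb 19 and 15. Where the construction of an alternative does not show it, the cause was not tested.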

Other observations

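Signalling genes of the connective tissue were mixed in the summed injured limb. Of 11 measured Wnt ligands and secreted inhibitors, 5 were higher and 3 lower (median log2 ratio 0.81). The secreted inhibitor Wif1 had 50 and 1 UMI (54.3-fold higher, interval 9.30 to 2186), and Sfrp1, a frizzled-related inhibitor, 538 and 215 UMIs (2.72-fold higher), both mainly in mesenchymal-like cells. Without the deepest cell of each library Sfrp1 no longer met the call (305 and 215 UMIs, log2 ratio from 1.44 to 0.67). Other inhibitors of the same pathway went down: Sfrp4 had 4 and 147 UMIs (33.9-fold lower) and Dkk2 8 and 96 UMIs (11.1-fold lower), also in mesenchymal-like cells. Of 15 measured TGF-beta ligands, receptors and targets, 4 were higher and 2 lower (median log2 ratio 0.19). The activin chain Inhba had 75 and 24 UMIs (3.39-fold higher), while follistatin (Fst), which binds activin, had 54 and 345 UMIs (5.89-fold lower), so ligand and inhibitor moved in opposite directions. Of 15 measured BMP ligands, receptors and Id targets, 0 were higher and 5 lower (median log2 ratio -0.19). The BMP target genes Id1 (102 and 330 UMIs) and Id3 (210 and 804 UMIs) were 2.98-fold lower and 3.53-fold lower, and endothelial-like cells held 70.3% of uninjured Id1. The ligand Gdf10 had 2 and 176 UMIs (81.1-fold lower, interval 22.1 to 675). Of 10 measured IGF1 and IGF-binding proteins, 0 were higher and 4 lower (median log2 ratio -0.55). Igf1, a growth factor of muscle and connective tissue, had 144 and 474 UMIs (3.03-fold lower) and its binding protein Igfbp6 280 and 1755 UMIs (5.78-fold lower).

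Imprinted genes, several of which are active in fetal growth, divided. Of 9 measured imprinted growth genes, 2 were higher and 4 lower (median log2 ratio -0.20). The non-coding RNA H19 had 390 and 33 UMIs (12.8-fold higher, interval 8.98 to 18.9) and Mest 208 and 36 UMIs (6.27-fold higher), whereas Ndn had 19 and 141 UMIs (6.84-fold lower) and Cdkn1c, a cell cycle inhibitor, 29 and 178 UMIs (5.66-fold lower; 14 and 169 UMIs without the 3 deepest cells of each library). H19 was also higher inside the mesenchymal-like class, as given above. Of 8 measured CXC chemokines, 4 were higher and 3 lower (median log2 ratio 0.81). Beside the 4 higher neutrophil attractants, Cxcl12, which holds leukocytes and progenitors in tissue, had 244 and 1561 UMIs (5.89-fold lower), Cxcl14 167 and 613 UMIs (3.38-fold lower) and platelet factor Pf4 42 and 257 UMIs (5.64-fold lower). Of 13 measured interferon response genes, 1 was higher and 7 lower (median log2 ratio -1.04). Ifitm1 went against the rest of that list with 684 and 72 UMIs (10.3-fold higher, interval 8.08 to 13.3), and monocyte or macrophage-like cells held 57.2% of its injured UMIs in the clusters, and dendritic-like cells 53.4% by highest marker level. Ifit3 had 2 and 26 UMIs (11.98-fold lower, interval 2.999 to 104).

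Stress and early-response genes showed no common direction. Of 17 measured hypoxia and vascular growth factor genes, 2 were higher and 5 lower (median log2 ratio -0.32). Hif1a had 368 and 148 UMIs (2.70-fold higher) and the vasodilator Adm 5 and 30 UMIs (5.53-fold lower). Of 17 measured immediate early genes, 3 were higher and 3 lower (median log2 ratio 0.21). Junb had 558 and 196 UMIs (3.09-fold higher) and Ier3 556 and 149 UMIs (4.05-fold higher), with 71.3% and 76.6% of the injured UMIs in neutrophil-like cells. Without the 3 deepest cells of each library the log2 ratio of Ier3 went from 2.02 to 2.99. Klf2, a flow-responsive factor of vessel lining, had 60 and 607 UMIs (9.32-fold lower) with 55.02% of the uninjured UMIs in endothelial-like cells. Of 14 measured heat shock and chaperone genes, 1 was higher and 1 lower (median log2 ratio 0.40). The small heat shock protein gene Cryab, abundant in muscle and nerve, was the lower member with 107 and 573 UMIs (4.93-fold lower), and the Schwann or glial-like cluster held 60.9% of its uninjured UMIs.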
